A study of Rattus norvegicus with 6 samples.

Results

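The very long genes of the rat striatum were taken as all annotated genes outside the mitochondrial chromosome whose span, from the first base of the first exon to the last base of the last, is at least 300 kb. They numbered 378 of the 32552 genes counted (1.16%). Poly(A)-selected RNA had been sequenced from the striatum, which receives most input to the basal ganglia, of male Sprague-Dawley rats. The control group had received 0.9% NaCl into the peritoneal cavity and the Mn-exposed group MnCl2 at 25 mg/kg, both over 15 days. Manganese (Mn) is a trace metal that cells need and that harms the basal ganglia at high exposure. Each group held 3 samples, named here by their labels as control 1, 2 and 4 and Mn-exposed 13, 14 and 17. Age is not given in the labels, and nothing states how many rats gave the samples, so that p-values reflect the spread among these libraries, which may be technical. Total counts ran from 21754379 (Mn-exposed 13) to 32569760 (control 2). The gene IDs are not paired with gene names in the sources used here, so genes are given by their position on Rnor_6.0, counted from base 1, and the labelled tissue was not checked against marker genes.

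Very long genes are long because of their introns. RNA polymerase II has to copy the whole span before a transcript is finished, which takes hours for the longest. The introns are removed, so that the mature messenger RNA is far shorter than the span. In mammals the longest genes are used above all in the brain, where many encode cell adhesion proteins, synaptic organisers, ion channels and receptors of neurons. Dystrophin and members of the neurexin and contactin-associated protein families are known examples. In a bulk tissue sample, fewer cells of a type and less RNA per cell cannot be told apart.

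Nearly all of the sequence of these genes was intronic. The span of the 378 genes had a median of 404.6 kb and ran from 301.001 kb to 6361 kb, with 117 genes of 500 kb or more and 15 of 1000 kb or more. Their exons added up to a median of 4056.5 bases (from 357 to 29464), which is a median of 0.882% of the span. After merging overlapping exons a gene had a median of 20 exons, from 3 to 144, and 54 genes had fewer than 10. The longest intron had a median length of 129.5 kb and took a median of 28% of the span. In 40 genes it took over 50%, and 167 genes would still span 300 kb or more without it.

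The genes were spread over 21 chromosomes, with 41 on chromosome 1, 37 on chromosome 4 and 8 on chromosome 19. Relative to the genes annotated there, they were most frequent on chromosome 4 (1.89% of its genes) and least frequent on chromosome 7 (0.746%). The plus strand held 186 of the 378. Only 16 lay within 100 kb of another gene of this length. Inside the introns there was room for other genes: 204 of the 378 held at least 1 whole annotated gene, and 1 held 34. Exons overlapped those of another gene in 24, where reads of the genes involved cannot be separated if strand was not used in counting.

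Most very long genes were expressed in the striatum. A filter on low counts passed 354 of the 378 (93.7%), against 14870 of the 32139 shorter nuclear genes (46.3%). Those shorter genes include many small ones, with a median of 1158 exonic bases and 3 merged exons. At a limit of 200 kb, which takes in the very long genes, 708 of 776 passed, so a high share was not particular to 300 kb. Of the 24 very long genes that did not pass, 7 had no count in any library, and the highest count of the 24, summed over the 6 libraries, was 61. The 354 that passed are the very long genes for which fold changes are given below. Their mean level had a median of 31 CPM (the read count relative to the library total, scaled by TMM, which corrects for differences in composition between libraries), from 0.434 to 1342. Of these genes 68 stood at 100 CPM or more and 11 below 1.

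CPM is not corrected for transcript length, and longer transcripts collect more reads. Per kilobase of exon the very long genes had a median of 8.03 CPM and the shorter genes tested 8.18 CPM. The shorter genes at matched CPM, weighted so that each step of 0.5 in mean log2 CPM counted as often as among the very long genes, had a median exonic length of 2455 bases and a median of 9 merged exons. The very long genes tested had 4178 bases and 21 merged exons. Their span differed far more, with a median of 405594 bases against 21820.

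**Figure D1:**
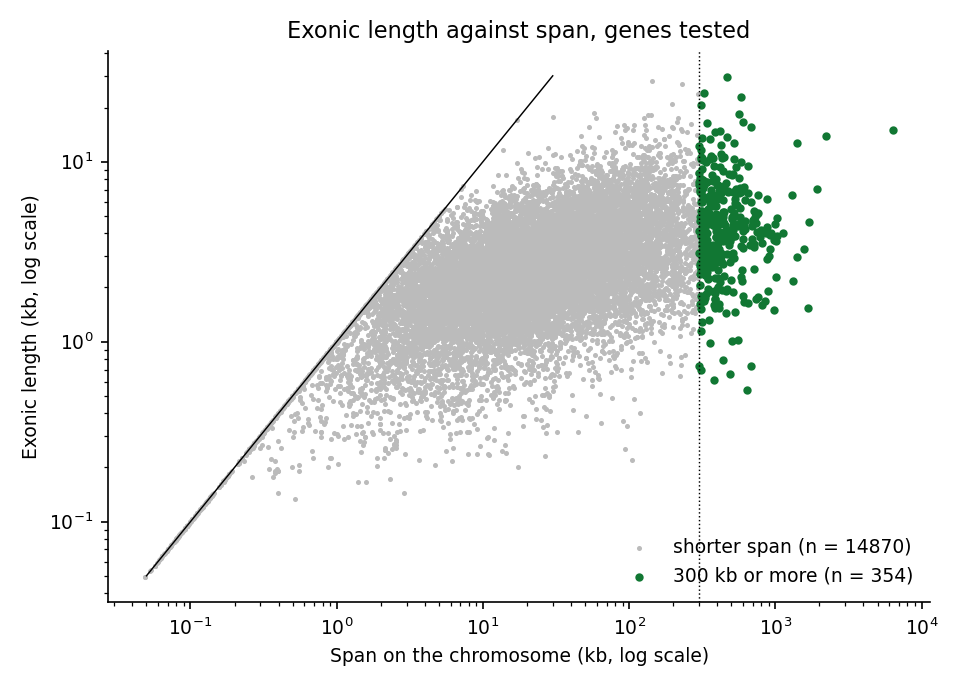
Exonic length against span for the nuclear genes tested, both in kb on log scales, with 1 point per gene. The 354 genes of 300 kb or more (green) lie right of the dotted line at 300 kb, and the diagonal marks genes without introns. Their exonic lengths run from 537 to 29464 bases and overlap those of shorter genes almost throughout.

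Very long genes took between 1.97% and 3.08% of all counts in a library. The share was 1.97% in control 1, 2.77% in control 2 and 2.74% in control 4. Among Mn-exposed libraries it was 2.42% in 13, 3.08% in 14 and 2.94% in 17. Control 1 was the lowest of the 6 and Mn-exposed 13 the next, and both lay below the range of the other 4, so the groups overlapped. The mean was 2.49% ± 0.456 in controls and 2.81% ± 0.347 in Mn-exposed libraries (SD, n = 3 each). The difference of 0.319 percentage points was smaller than the pooled SD within groups, 0.405 points. Paired by the ID numbers in the labels, the share was higher in the Mn-exposed library in all 3 pairs. The mean difference was 0.319 ± 0.127 points (SD, n = 3 pairs), which is larger than the spread between pairs. The labels do not state that same-numbered samples belong together, and the pairs were kept for correlations within these libraries. Mn-exposed 13 lay below control 2 and control 4, so the sign in all 3 pairs rests on setting it against control 1. Without control 1 the unpaired difference was 0.0562 points, without Mn-exposed 14 it was 0.186 points and without Mn-exposed 13 it was 0.516 points.

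Counting error was far smaller than these differences between libraries. For control 1, a 95% Clopper-Pearson interval ran from 1.96013% to 1.97174%, which covers counting error only. The mitochondrial chromosome, whose transcripts enter the same total, took 16.6% of them in control 1, 13.9% in control 2, 13.9% in control 4, 13.8% in Mn-exposed 13, 8.64% in Mn-exposed 14 and 12.4% in Mn-exposed 17. Its share was the highest in control 1 and the lowest in Mn-exposed 14, the libraries where very long genes stood lowest and highest. In Mn-exposed 13, the next lowest for very long genes, it was close to that in control 2 and control 4. All 3 Mn-exposed libraries lay below all 3 controls in mitochondrial share. Its part in the share of very long genes was not tested beyond leaving it out. With mitochondrial counts left out, the share of very long genes was 2.36%, 3.22% and 3.18% in controls and 2.80%, 3.37% and 3.35% in Mn-exposed libraries, in the same order. The difference between group means was then 0.256 points, and -0.0252 points without control 1. By ID number it was between 0.147 and 0.447 points in the 3 pairs. A few genes carried much of the share: 10 genes took 27% of it and 50 took 60.1%.

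Set against shorter genes at matched CPM, very long genes were low in control 1 and, less so, in Mn-exposed 13. For each library, the log2 CPM of a gene was taken relative to its mean over the 6 libraries, and the offset is the median over very long genes minus the weighted median over shorter genes. A factor that scales a whole library cancels in this difference. The offset was -0.24 in control 1, 0.05 in control 2 and 0.03 in control 4. In Mn-exposed 13, 14 and 17 it was -0.09, 0.11 and 0.10. Controls thus held both the lowest library and 2 near 0, and the Mn-exposed group held a low library and the 2 highest.

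The group means of the offset were -0.05 ± 0.16 in controls and 0.04 ± 0.11 in Mn-exposed libraries (SD, n = 3 each). Their difference, 0.0954, was smaller than the pooled SD within groups, 0.141. Without control 1 it was close to 0: leaving that library out of the group mean alone gave 0.000916, and computing gene means, filter and matching anew over the other 5 libraries gave -0.0169. Computed anew in the same way, it was 0.033 without Mn-exposed 14, 0.052 without Mn-exposed 17 and 0.168 without Mn-exposed 13. With shorter genes matched on both CPM and exonic length, the offset was -0.22, 0.04 and 0.05 in controls and -0.07, 0.09 and 0.08 in Mn-exposed libraries. Control 1 and Mn-exposed 13 were the 2 lowest in that match as well. The difference between group means was 0.0731, and -0.0138 with control 1 left out of the group mean alone. Leaving out control 1 keeps Mn-exposed 13, the other low library, which shares its ID number in the labels. Taken by ID number, the offset was higher in the Mn-exposed library of all 3 pairs, by a mean of 0.0954 ± 0.0527 (SD, n = 3 pairs), and by a mean of 0.0656 in the 2 pairs without control 1. By that pairing the difference is larger than its spread, unlike the difference between unpaired groups. The pairs were kept for correlations within these libraries, and they set control 1 and Mn-exposed 13, both low, against each other. The narrower spread is therefore not independent of the choice of pairs, and no conclusion on Mn is drawn from it.

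**Figure D2:**
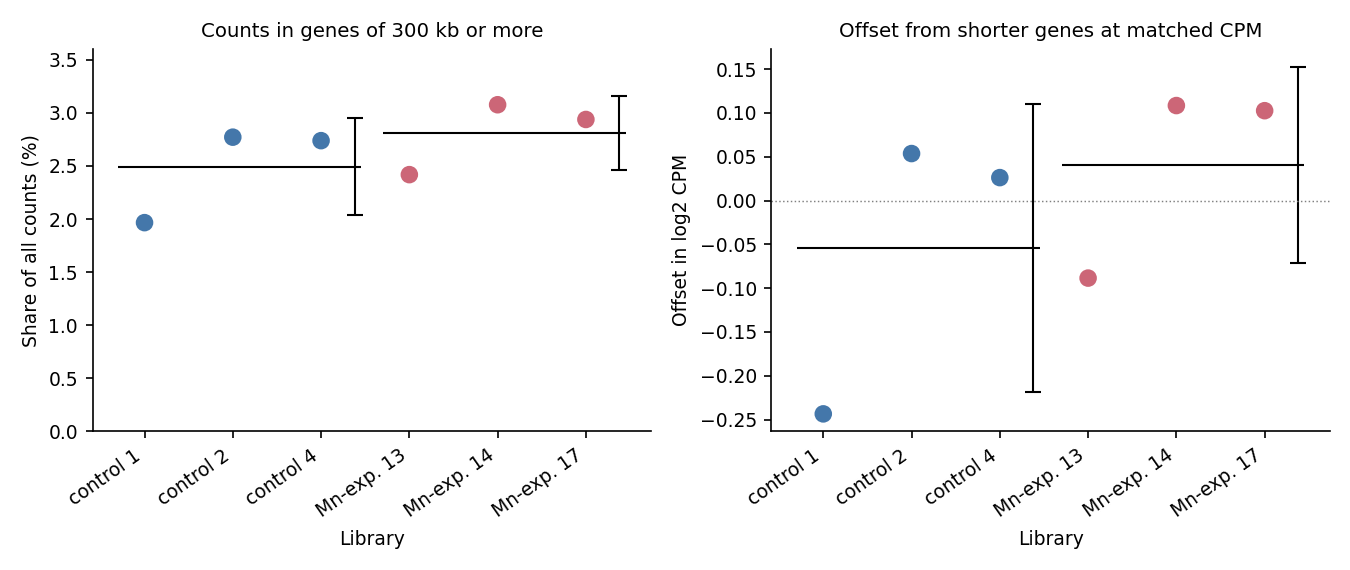
Left, the share of all counts, in percent, that fell in the 378 genes of 300 kb or more, for each library. Right, the offset of these genes from shorter genes at matched CPM, in log2 CPM; blue points are controls, red points Mn-exposed libraries, horizontal lines group means and error bars 1 SD (n = 3 each). Control 1, at 1.97% and -0.24, is the lowest in both panels.

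Gene by gene, the same library stood out. Of the 354 genes, 165 (46.6%) had their lowest CPM in control 1, where 26.2% of all genes tested had theirs. Control 2 was the lowest library for 15 genes (4.24%, against 9.54% of all genes tested). At the other end, 127 genes (35.9%) had their highest CPM in Mn-exposed 14, against 24.2% of all genes tested. Control 1 was the lowest and Mn-exposed 14 the highest for 56 of the 354 genes, and for 9.76% of all genes tested. Over all genes tested, control 1 was also often the highest library, for 26.8%, against 50 very long genes (14.1%).

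Spread within groups was wider for very long genes. The SD of log2 CPM among the 3 controls had a median of 0.31, against 0.19 in shorter genes at matched CPM. Among the 3 Mn-exposed libraries the medians were 0.27 and 0.20. Between control 2 and control 4 alone, the medians were 0.0915 for very long genes and 0.0886 for shorter genes. These values describe the libraries; the difference in spread was not tested.

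The deviation of control 1 was lower the longer the span, up to 1000 kb. Its median deviation from the gene mean was 0.05 in genes of under 10 kb, -0.03 from 30 to 100 kb, -0.07 from 100 to 200 kb, and -0.16 from 200 to 300 kb. Above the limit it was -0.24 from 300 to 500 kb (243 genes), -0.32 from 500 to 1000 kb (96 genes) and -0.30 in the 15 genes of over 1000 kb. Mn-exposed 14 went the other way, from -0.04 under 10 kb to 0.11, 0.17 and 0.22 in the 3 longest classes. The limit of 300 kb therefore marks no step: genes of 200 to 300 kb stood in control 1 and Mn-exposed 14 on the same side as the very long genes. Mn-exposed 17 also rose, from -0.02 under 10 kb to 0.09, 0.11 and 0.11 in the 3 longest classes. Control 2 and control 4 stood closer to 0, from -0.03 and 0.02 under 10 kb to 0.09 and 0.06 from 500 to 1000 kb. Over 1000 kb they were at 0.06 and -0.05. Mn-exposed 13 stood at -0.07 and -0.17 from 300 to 500 and from 500 to 1000 kb. In the class over 1000 kb, which holds only 15 genes, it was at 0.01.

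**Figure D3:**
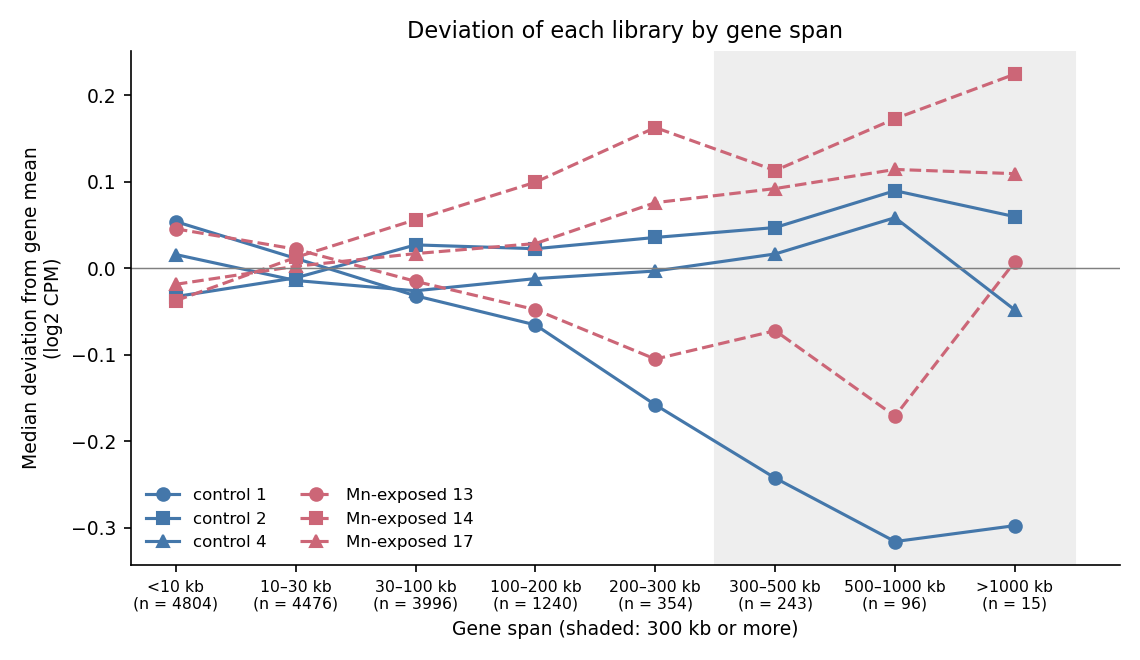
Median deviation of each library from the gene mean, in log2 CPM, for 8 classes of gene span (number of genes tested under each class; shaded, the very long genes). Blue solid lines are controls, red dashed lines Mn-exposed libraries. The lines lie within 0.05 and -0.04 in genes of under 10 kb and run from -0.32 (control 1) to 0.17 (Mn-exposed 14) in genes of 500 to 1000 kb.

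The low offset of control 1 was seen in the well expressed genes. Among the 135 very long genes of over 50 mean CPM it was -0.33 against shorter genes at matched CPM, and among the 131 genes of 10 to 50 CPM it was -0.26. Among the 88 genes of under 10 CPM it was 0.03. In those 88 genes control 4 was the lowest library, at -0.13, and Mn-exposed 14 the highest, at 0.19. Across the 354 genes, the deviation in control 1 had a Spearman rho of -0.286 with mean log2 CPM and -0.136 with span, as a description of values that share libraries and depth.

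Over classes of exon structure the offset varied less. The offset of control 1 was -0.20 in the 95 genes with 3000 exonic bases or fewer, -0.28 in the 159 with over 3000 and up to 6000 and -0.21 in the 100 with more. It was -0.25 in the 99 genes of 12 or fewer merged exons and -0.14 in the 78 genes of over 30. In the 37 genes tested whose longest intron took over 50% of the span it was -0.30, and in the 160 that span 300 kb or more without their longest intron it was -0.25. Control 1 was the lowest library in each of these sets. Without the genes whose exons overlap those of another gene it was -0.24.

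Between Mn-exposed and control striatum, no very long gene passed the test for a difference in level: 0 of 354 had an adjusted p under 0.05 in edgeR's quasi-likelihood test, where 0 of all 15252 genes tested did (0%), and the smallest adjusted p among them was 0.626. At an unadjusted p under 0.05 there were 37 (10.5%), against 7.47% of all genes tested. Of these, 27 had a higher mean in Mn-exposed libraries (7.63%, against a background of 4.26%) and 10 a lower one (2.82%, against 3.21%). Scaling by library size alone, under which all genes centred at a log2 fold change of 0.12 and not 0.02, made that division 39 and 4, against backgrounds of 8.12% and 1.6%.

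That count moved with single libraries, and so did its background. It was 60 of 355 without control 1 (background 8.07%), 72 of 357 without Mn-exposed 13 (15.2%) and 19 of 357 without Mn-exposed 17 (3.73%). Without control 2 it was 21 of 358 (5.11%), without control 4 22 of 356 (4.36%) and without Mn-exposed 14 21 of 357 (5.33%). DESeq2 called 1 of 371 very long genes at an adjusted p under 0.05, where it called 0.403% of 22856 genes. The gene was higher in Mn-exposed libraries, and 0.228% of the 22856 genes were called as higher. Both totals include genes without an adjusted p, which cannot be called: 13 of the 371 and 7092 of the 22856. These genes lower the background more than the share of very long genes. Limma-voom called 0, with 32 at an unadjusted p under 0.05 (9.04%, against 7.25% of all genes tested). Of these 32, 21 were higher in Mn-exposed libraries (5.93%, against 3.89%) and 11 lower (3.11%, against 3.36%).

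Each sample also has an ID number within its group, and samples of the same number were taken here as pairs. These are control 1 and Mn-exposed 13, control 2 and Mn-exposed 14, and control 4 and Mn-exposed 17. The labels do not state that they are pairs. With these numbers as a block, edgeR again called 0, and 71 of 354 genes had an unadjusted p under 0.05 (20.1%, against 13.9% of all genes tested), 53 of them higher in Mn-exposed libraries (15%, against 6.98%) and 18 lower (5.08%, against 6.89%). DESeq2 with the block called 16 of 371 (4.31%, against 1.27%), 15 higher (4.04%, against 0.695%) and 1 lower (0.270%, against 0.577%). Genes without an adjusted p are again part of both totals, so these backgrounds are not for callable genes alone. The pairing rests on correlations within these libraries, so these counts are not independent of it. Within the pairs the offset was higher in the Mn-exposed library by 0.15, 0.05 and 0.08, and the share of counts by 0.452, 0.306 and 0.200 percentage points. Control 1 and Mn-exposed 13, the 2 libraries that were low for very long genes, form 1 of these pairs.

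The fold changes of very long genes centred slightly above 0. Their median log2 fold change was 0.06, against 0.02 for all genes tested and 0.01 for shorter genes at matched CPM. Above 0 were 211 of 354 (59.6%), against 51.9% of shorter genes at matched CPM. With library size alone the median was 0.17 against 0.12 for all genes. The difference between very long and shorter genes at matched CPM, 0.053, was 0.013 without control 1, 0.022 without Mn-exposed 17, 0.029 without Mn-exposed 14 and 0.029 when exonic length was matched too. It was 0.097 without Mn-exposed 13, 0.095 without control 2 and 0.092 without control 4. The offset of the libraries, given above, moves with this difference, and its part in single fold changes was not tested.

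By level, the higher values were at the low end. The 88 genes of under 10 CPM had a median log2 fold change of 0.14 with 68.2% above 0, where shorter genes of that level had 0.04 and 53.3%. In the 135 genes of over 50 CPM the median was 0.02 with 52.6% above 0, beside 0.0011 and 50.1% in shorter genes. A log2 fold change of at least 1 in either direction was found in 24 genes (6.78%, against 4.14% of all genes tested). The groups did not overlap in CPM in 36 genes (10.2%, against 12.1% of all genes tested), of which 21 were higher (background 6.6%) and 15 lower (background 5.48%) in Mn-exposed libraries. With library size alone the division was 38 and 8, against backgrounds of 13.7% and 2.7%. The share of very long genes whose groups lay apart was thus near the background.

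**Figure D4:**
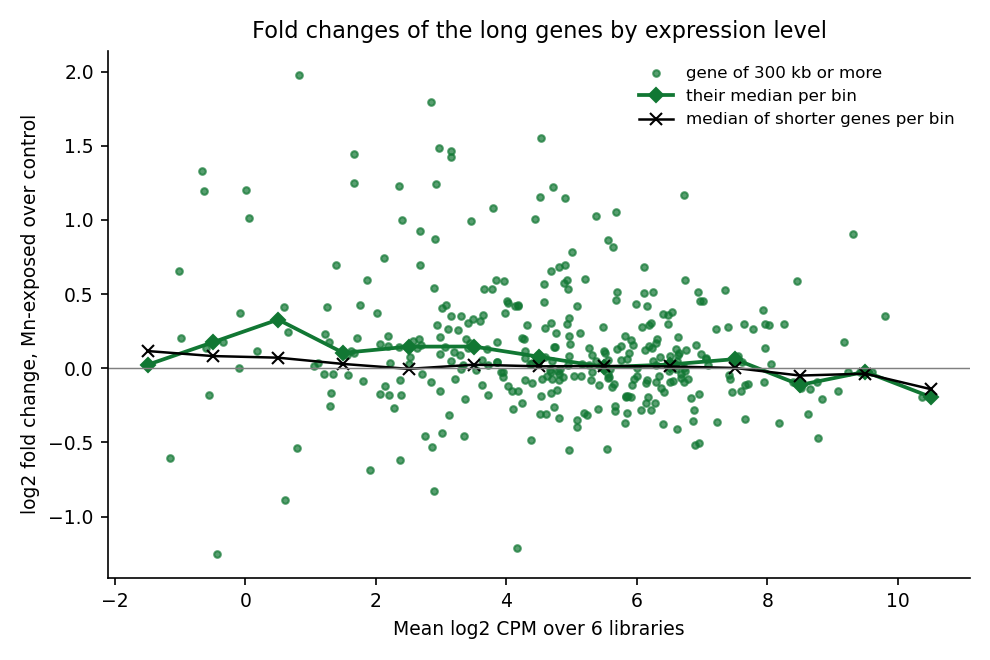
Log2 fold change of Mn-exposed over control libraries against mean log2 CPM for the 354 genes of 300 kb or more (green points), with their median in bins of 1 log2 CPM (green line) and the median of shorter genes in the same bins (black line). The median of the very long genes lies above that of shorter genes by the most in the bin from 0 to 1, at 0.33 against 0.07 with 8 genes, and below it in 4 bins: -2 to -1 (2 genes), 5 to 6 (55 genes, 0.0077 against 0.0154), 8 to 9 (12 genes, -0.11 against -0.05) and 10 to 11 (1 gene).

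Of the very long genes, the 2 with the smallest p among those higher in Mn-exposed libraries were ENSRNOG00000014775 and ENSRNOG00000011151. The first, at chr18:13658271-14016713 (minus strand), has 10 merged exons, 5088 exonic bases and no other annotated gene in its span. It stood at 13.2, 14.6 and 18.8 CPM in control 1, 2 and 4 and at 28.4, 46.8 and 28.7 CPM in Mn-exposed 13, 14 and 17. All 3 Mn-exposed values lay above all 3 controls, which selection by p makes likely. The fitted log2 fold change was 1.16 (SE 0.24, 2.23-fold), with an adjusted p of 0.626 in edgeR's quasi-likelihood test and 0.00917 in DESeq2. It was the single very long gene that DESeq2 called without the block. With the ID numbers as a block, its adjusted p was 0.00209 in DESeq2 and 0.255 in edgeR's test.

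ENSRNOG00000011151 lies at chr1:161401527-161880923 (plus strand), with 32 merged exons and 8542 exonic bases. Its level was 29.5, 37.9 and 46.4 CPM in controls and 50.1, 71.8 and 78.8 CPM in Mn-exposed libraries. The groups did not overlap, although control 4 and Mn-exposed 13 were close. The log2 fold change was 0.82 (SE 0.22), with an adjusted p of 0.663 in edgeR's test and 0.136 in DESeq2. With the ID numbers as a block, its adjusted p was 0.000243 in DESeq2 and 0.245 in edgeR's test. The block rests on correlations within these libraries.

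The 2 with the smallest p in the other direction were ENSRNOG00000028627 and ENSRNOG00000003134. ENSRNOG00000028627, at chr13:67799791-68360664 (minus strand), is an exon-rich gene with 111 merged exons and 18417 exonic bases. It stood at 9.34, 8.59 and 11.6 CPM in controls and 6.30, 4.47 and 5.88 CPM in Mn-exposed libraries, so that the groups did not overlap. Its log2 fold change was -0.83 (SE 0.20), with an adjusted p of 0.663 in edgeR's test and 0.0563 in DESeq2. With the block these were 0.245 in edgeR's test and 0.0451 in DESeq2. ENSRNOG00000003134, at chr14:20479323-20920286 (minus strand) with 28 merged exons, was narrow among controls, at 145, 152 and 143 CPM. In Mn-exposed libraries it stood at 117, 88.6 and 106 CPM, all below the controls. The log2 fold change was -0.50 (SE 0.13), with an adjusted p of 0.663 in edgeR's test and 0.102 in DESeq2. With the block these were 0.262 in edgeR's test and 0.0844 in DESeq2.

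Control 1 was the lowest library in each of the 5 genes with the highest CPM except the one at chr17:5933729-6244676. The order of the other libraries was not shared. The gene at chr4:140247313-140580748 (plus strand) alone took 5.04% of the counts of all very long genes, and its exons overlap those of another gene. It stood at 1075, 1567 and 1654 CPM in controls and 1431, 1087 and 1240 CPM in Mn-exposed libraries, so that the groups overlapped, with control 1 and Mn-exposed 14 as the 2 lowest. Per kilobase of exon, at 135 CPM, it was exceeded by the gene at chr16:39367692-39719187 (minus strand), at 269 CPM per kilobase, whose exons are 3382 bases long. That gene stood at 627, 899 and 874 CPM in controls and 817, 1169 and 1074 CPM in Mn-exposed libraries. Its groups overlapped through Mn-exposed 13, and its log2 fold change was 0.35 (SE 0.21, edgeR adjusted p = 0.691).

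The gene at chr17:5933729-6244676 (minus strand) was even across all 6 libraries. It stood at 840, 736 and 789 CPM in controls and 840, 771 and 716 CPM in Mn-exposed libraries, and control 1 was among its highest values. The gene at chr7:50084060-50638798 (minus strand) varied most of the 5. It stood at 336, 525 and 596 CPM in controls and at 512, 1207 and 1012 CPM in Mn-exposed 13, 14 and 17. Mn-exposed 13 fell within the controls, and the log2 fold change was 0.91 (SE 0.35, edgeR adjusted p = 0.663). DESeq2 gave this gene an adjusted p of 0.325 without the block and 0.0007 with it. With the same block, edgeR's test gave 0.245. The block rests on correlations within these libraries.

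The fifth, at chr1:41608418-42077535 (minus strand), has the most exons of all very long genes, 144 after merging, and the longest exonic sequence, 29464 bases. It stood at 493, 754 and 846 CPM in controls and at 682, 756 and 618 CPM in Mn-exposed libraries. Its groups overlapped, and the log2 fold change was -0.03 (SE 0.22). The next in number of exons, 117, at chr3:104118063-104504204 (minus strand), stood at 85.6, 164 and 193 CPM in controls and 101, 75.4 and 135 CPM in Mn-exposed libraries. Mn-exposed 14 and control 1 were its 2 lowest libraries.

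**Figure D5:**
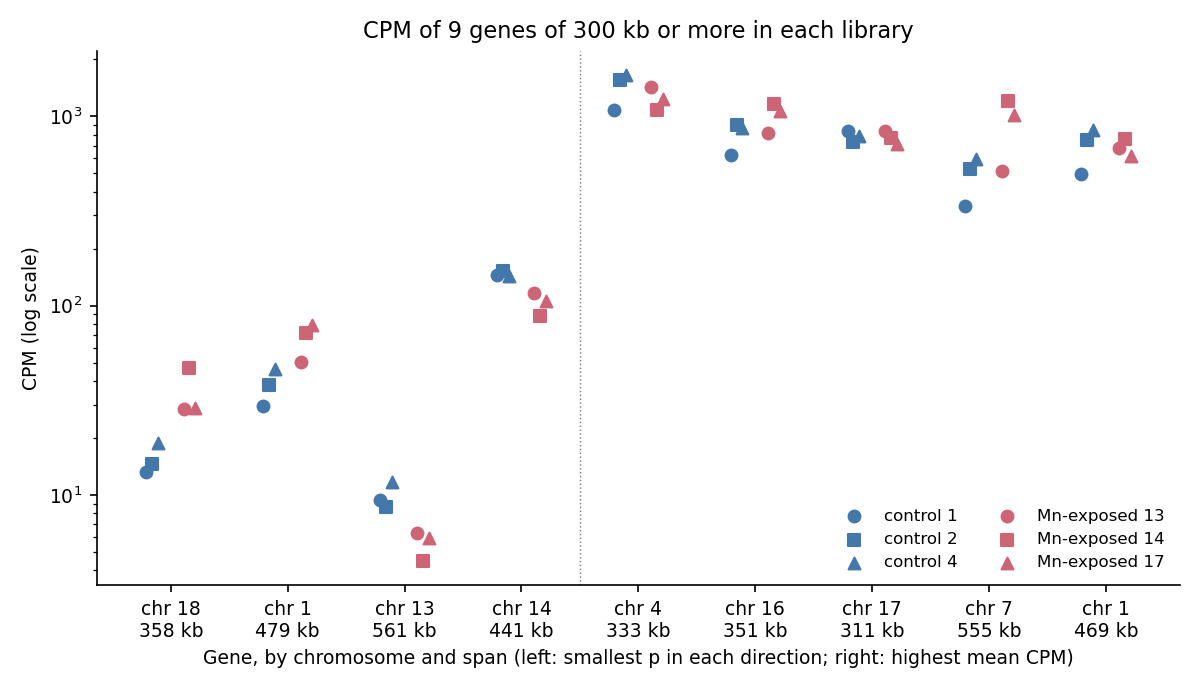
CPM on a log scale, in each of the 6 libraries, of the very long genes with the smallest p, 2 in each direction (left of the dotted line) and the 5 with the highest mean CPM (right). Blue symbols are controls and red symbols Mn-exposed libraries. The groups lie apart in the 4 genes on the left, which were chosen by p, and overlap in the 5 on the right.

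The longest span in the annotation rests on 1 intron. At chr15:87506959-93868301 (minus strand), 86 merged exons are spread over 6361 kb, of which a single intron of 6138 kb takes 96.5%, and 34 other genes lie inside the span. Its exons overlap those of another gene. The gene stood at 174, 219 and 210 CPM in controls and 202, 262 and 261 CPM in Mn-exposed libraries, where the groups overlapped through Mn-exposed 13. The next longest, at chrX:51286737-53519259 (plus strand), has 81 merged exons and a longest intron of 11.5% of its span. It stood at 66.7, 61.5 and 55.6 CPM in controls and 70.3, 82.2 and 70.2 CPM in Mn-exposed libraries. All 3 Mn-exposed values lay above the controls in this gene, by a log2 fold change of 0.28 (SE 0.12, edgeR adjusted p = 0.665), and control 1 was the highest control.

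Control 1 was the lowest library in 2 of the other 3 genes of the greatest span. The one at chr6:112133204-114067564 (plus strand) stood at 78.8, 160 and 167 CPM in controls and 105, 156 and 163 CPM in Mn-exposed libraries. Its control 1 and Mn-exposed 13 values were the 2 lowest, and the other 4 lay close together. The gene at chr4:75325651-77023138 (plus strand), whose exons overlap another gene, stood at 32.9, 81.9 and 49.3 CPM in controls and 47.4, 68.3 and 75.1 CPM in Mn-exposed libraries. Control 1 was again the lowest there. The fifth, at chr1:111849998-113527735 (plus strand), has 1533 exonic bases in 1678 kb, and 81.2% of its span is 1 intron. It stood at 68.0, 64.7 and 60.0 CPM in controls and 48.3, 74.9 and 59.8 CPM in Mn-exposed libraries, and here control 1 was not low.

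Genes with few exons or little exonic sequence were also measured. The gene with the fewest merged exons among those tested, 3, lies at chr15:104448600-105254214 (plus strand), and 99.8% of its span is 1 intron. It stood at 11.1, 38.2 and 39.2 CPM in controls and 12.1, 17.2 and 9.02 CPM in Mn-exposed libraries. Control 2 and control 4 were high and control 1 lay among the Mn-exposed values, and the log2 fold change was -1.21 (SE 0.48, edgeR adjusted p = 0.663). A gene of 4 merged exons at chr5:15747614-16140896 (minus strand) stood at 7.02, 8.40 and 5.90 CPM in controls and 6.03, 11.1 and 11.2 CPM in Mn-exposed libraries, where the groups overlapped.

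The exonic share of the span ran from 0.0841% to 7.44% among the genes tested. At the low end, 537 exonic bases in 638706 at chr5:34174411-34813116 (minus strand) gave 0.332, 0.660 and 0.166 CPM in controls and 1.05, 0.802 and 0.912 CPM in Mn-exposed libraries. The groups did not overlap, on counts of 4 to 27 in a library, with an edgeR adjusted p of 0.663. At the high end, 24116 exonic bases at chr5:141039468-141363524 (minus strand) gave 459, 407 and 409 CPM in controls and 381, 405 and 370 CPM in Mn-exposed libraries. Here too the groups did not overlap, in the other direction, and the log2 fold change was -0.14 (SE 0.13). The second highest exonic share, 6.69%, was at chr6:98844926-99153551 (plus strand), in a gene whose exons overlap those of another gene. It stood at 50.7, 39.1 and 42.3 CPM in controls and 52.5, 85.1 and 50.7 CPM in Mn-exposed libraries, with Mn-exposed 14 apart from the rest. Its groups did not overlap, but control 1 (50.65 CPM) and Mn-exposed 17 (50.73 CPM) were nearly equal.

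At the limit of 300 kb, the 2 genes tested just above it span 301001 and 301268 bases and the 2 just below it 299901 and 299676 bases. The gene at chr1:137014272-137315272 stood at 49.8, 33.0 and 32.5 CPM in controls and 31.4, 32.2 and 26.8 CPM in Mn-exposed libraries. The one at chr4:82836260-83137527 stood at 7.45, 11.4 and 11.4 CPM in controls and 10.5, 13.7 and 14.0 CPM in Mn-exposed libraries. Just below the limit, the gene at chr2:229196616-229496516 stood at 2.18, 1.45 and 0.499 CPM in controls and 0.777, 0.420 and 0.777 CPM in Mn-exposed libraries. The gene at chr18:59096643-59396318 stood at 127, 204 and 210 CPM in controls and 170, 229 and 218 CPM in Mn-exposed libraries. Control 1 was the lowest library in 1 gene on each side of the limit and the highest in the other.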

How the data were processed

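The authors deposited raw counts, whole numbers of reads per Ensembl gene, for 6 poly(A)-selected libraries, per the file headers, with exon positions and exonic length. Per the submitters' processing notes, the build was Rnor_6.0 and the tools included DESeq2, STAR 2.5.2b and bcl2fastq 2.17. For the counting tool, annotation release and use of strand, the entry is: not given in the sources used here. RNA was extracted with RNeasy Plus Mini and prepared with NEBNext Ultra RNA, per the labels' protocols. The series table differed from the single files in 0 cells. Span was computed from the exon positions (1-based) and exons were merged where they overlap. Of the 32552 gene IDs, 0 matched the RefSeq table (GRCr8), so the gene lists could not be used and no sequence is shown. Every pair of libraries differed beyond sampling noise (chi-square over genes at least 11.8 for each degree of freedom), so all 6 were kept.

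Counts were filtered with filterByExpr, scaled with TMM, and fitted on all genes by the robust quasi-likelihood F-test of edgeR 4.0.16 (R 4.3.3) without a block, with Benjamini-Hochberg adjustment at 0.05; SE is the log2 fold change over the root of F. Log2 CPM used a prior count of 2. Shorter genes were weighted by steps of 0.5 in mean log2 CPM. DESeq2 1.42.0 gave a p for 22856 genes, 7092 of them without an adjusted p, and limma 3.58.1 ran voom. Other alternatives were scaling, filters, span limits, matching, overlaps and each library left out. Steps were tested on simulated counts.

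The ID numbers of the labels were used as a block since deviations from group means correlated at 0.417, 0.109 and 0.227 in the same-numbered pairs, all above the minimum of 0.1. Mn-exposed 14 correlated better with control 4 (0.145) and Mn-exposed 17 with control 2 (0.274), and the labels state no shared litter or day. Very long genes were named by smallest p (2 in each direction), highest CPM (5), longest span (5), most and fewest exons, exonic share (2 each) and distance from the limit. The members and lists were chosen with earlier results of these data known.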

Additional observations from a re-analysis of the deposited data

How the results depend on the processing

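The count of very long genes past an adjusted p of 0.05, 0 with edgeR, was 1 with DESeq2 and 16 with DESeq2 and the replicate block, and 0 with limma-voom, the replicate block in edgeR, other scaling, filters and span limits, and each replicate left out; the cause of the difference was not tested. The offset between groups (0.0954) ran from -0.0169 to 0.168 with 1 replicate left out and reversed only without control 1 (0.000916 if only the group mean leaves it out). Genes whose groups do not overlap (10.2%) ran from 12.3% to 37% with 1 replicate left out, where fewer samples make separation easier. Over all genes tested these shares ran from 15.9% to 37%. The share of very long genes was above that of all genes only without control 1 (32.1% against 24.4%) and level with it without Mn-exposed 13. The share difference (0.319 points) kept its sign under 12 alternatives taken singly (0.0562 to 0.516), but was -0.0252 points with mitochondrial counts and control 1 both left out; the median log2 fold change (0.06) kept its sign under 16 (0.02 to 0.17) and its difference from shorter genes (0.053) under 18 (0.013 to 0.097). The replicate block raised the very long genes at an unadjusted p under 0.05 from 37 to 71, changed no adjusted edgeR call and gave a median of 0.08. The sets defined by the longest intron or by exon overlap, and DESeq2 with the block, were chosen after seeing the data. Depth was not the limit for the share, and genes of under 1 CPM rest on few counts.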

Other observations

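Genes of 200 to 300 kb, which fall outside the limit used here, behaved in these libraries much like the very long genes. The 354 such genes tested had a median log2 fold change of 0.08, with 59.6% above 0, and 33 had groups that did not overlap (9.32%, against 12.1% of all genes tested). Their median deviation from the gene mean was -0.16 in control 1, 0.04 in control 2 and -0.0032 in control 4, and -0.11, 0.16 and 0.08 in Mn-exposed 13, 14 and 17. Control 1 was the lowest library and Mn-exposed 14 the highest.

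Exonic length moved with the same libraries among shorter genes, over a smaller range than span did. In shorter genes with over 6000 exonic bases (909 tested) the median deviation was -0.09 in control 1 and 0.09 in Mn-exposed 14. In those with 3000 bases or fewer (9772 tested) it was 0.03 and 0.0011. Neither these classes nor those of span were matched on CPM, and the median CPM was 52.7 in the former and 13.9 in the latter of these 2. By level alone, control 1 stood at 0.12 in shorter genes of under 10 CPM and at -0.06 in those of over 50 CPM. Exonic length and level were not separated here. Very long genes with 3000 exonic bases or fewer (95 tested) stood at -0.19 in control 1 and 0.05 in Mn-exposed 14.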
